A study of Homo sapiens with 6 samples.

Results

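The MYC and MAX network is a set of transcription factors that pair through a basic helix-loop-helix leucine zipper. Its 10 genes examined here were found by symbol, namely MYC, MYCN, MYCL, MAX, MXD1, MXD3, MXD4, MXI1, MNT and MGA, each of which corresponded to 1 of the 60671 gene identifiers in the count files. MAX is the shared partner. Together with a MYC protein it binds the E-box motif and activates genes of ribosome production, metabolism and growth, whereas its pairs with the MXD proteins, MXI1, MNT or MGA bind the same motif and repress. MYC transcripts are short-lived and respond quickly to extracellular signals, MYCN and MYCL are best known from embryonic, neural and neuroendocrine cells, and MXD1 is known as a gene that rises when cells leave the cycle and differentiate.

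Bulk RNA-seq was measured in wild-type EndoC-βH1, a human line of β cells derived from fetal pancreas. There were 3 samples treated with the vehicle DMSO and 3 with 1 µM AZD7762, an inhibitor of the checkpoint kinases CHEK1 and CHEK2. The study's kinase profiling at 1 µM found that AZD7762 also inhibited other kinases. All 6 samples spent 1 h in a starvation medium of 0.5 mM glucose and a further 1 h in a stimulation medium, with DMSO or AZD7762 present in both steps. The protocol names a low and a high glucose concentration for the stimulation and does not say which of them each library received, nor which of 2 kits, of which only 1 keeps the strand, was used for it. The study's methods describe in vitro replicates in general as independent, while the labels of these samples do not say whether they came from separate cultures. P-values set the difference between groups against the spread between these samples, moderated across genes. That spread may in part be technical.

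The libraries held between 20486391 and 29402440 counts on genes, and the network genes together held between 0.0436% and 0.0524% of them. A count of 3 corresponded to at most 0.146 CPM (counts scaled to a library of 1000000), a limit that covers counting error only. Of the 11 β cell markers examined, 11 were above 1 CPM on average, among them INS, PDX1 and CHGA. Of the 11, 1 was called at an adjusted p under 0.05, where 0.708% of all genes tested were, and 2 had an unadjusted p under 0.05. The called marker was the insulin gene activator MAFA, at 17.3 CPM with DMSO and 40.4 CPM with AZD7762 on average. Of 9 matched markers of other cell types, 2 (PRSS1 and CELA3A) had no count, and their summed level lay between 238 and 264 CPM with DMSO and between 287 and 311 CPM with AZD7762, most of it from SST (214 and 253 CPM on average). Of the 5 that passed the filter, 5 had a log2 fold change above 0 (52.4% of all genes tested did), 0 were called and 3 had an unadjusted p under 0.05 (9.68% of all genes tested did). Mitochondrial transcripts took between 1.57% and 2.13% of the counts with DMSO, and between 2.26% and 2.63% in the treated libraries. The part of these markers and of the mitochondrial share in the results below was not tested. In bulk RNA, fewer cells of a type and less RNA per cell cannot be told apart.

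All 10 network genes passed the filter on low counts and were tested among 17649 genes with edgeR's quasi-likelihood test and Benjamini-Hochberg adjustment. At an adjusted p under 0.05, 2 of the 10 were called, MYC higher and MXD1 lower with AZD7762, where 0.708% of all genes tested were called (0.357% higher and 0.351% lower). The 3 AZD7762 samples lay entirely above or below the 3 DMSO samples for 4 of the 10 genes, namely MYC, MAX, MYCN and MXD1, compared with 15.0% of all genes tested. The median log2 fold change was 0.04 over the 10 genes and 0.01 over all genes tested. MYC had the 22nd smallest p of all genes tested and MXD1 the 38th.

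**Figure D1:**
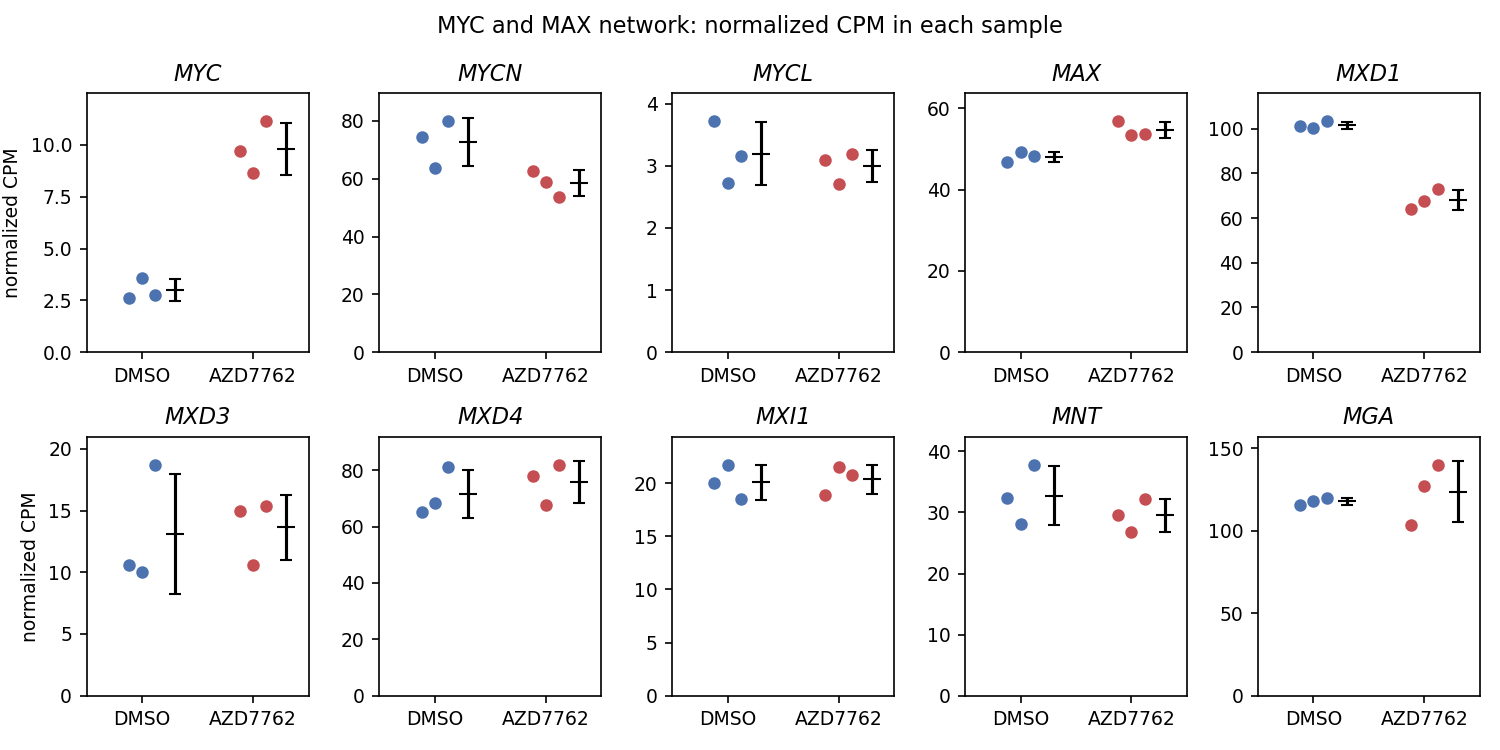
Normalized CPM (vertical axes, each from 0) of the 10 network genes in the 3 DMSO samples (blue) and the 3 AZD7762 samples (red), with the mean and SD of each group as a black bar. MYC rises from between 2.64 and 3.60 CPM to between 8.64 and 11.1 CPM, and MXD1 drops from between 100 and 103 CPM to between 64.1 and 72.8 CPM.

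Among the activators, MYC (ENSG00000136997, chromosome 8 of GRCh37, 128747680 to 128755197) is the best studied member and a driver of growth and cell cycle entry. With DMSO it had 78, 98 and 58 counts in replicates 1, 2 and 3, or 2.64, 3.60 and 2.78 normalized CPM (CPM after TMM scaling of the library totals). With AZD7762 it had 244, 182 and 238 counts, or 9.69, 8.64 and 11.1 CPM. All 3 treated samples lay far above all 3 control samples. The mean rose from 3.00 ± 0.520 to 9.82 ± 1.26 CPM (SD, n = 3 per group). On the log2 scale the rise was 1.70 with a standard error of 0.148 (edgeR, adjusted p = 4.68e-05), or 3.26-fold with a 95% interval from 2.61 to 4.07. Counting error alone gives a coefficient of variation of 11.3% at the DMSO depth, and the samples showed 17.3%. Of the annotated exon length of MYC, 3.18% overlaps CASC11 on the opposite strand, which had 0 counts in 5 libraries and 1 in AZD7762 replicate 3.

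MYCN (ENSG00000134323, chromosome 2, 16080672 to 16087129) was the most abundant MYC gene in these cells. It had 74.4, 63.8 and 79.9 CPM in the DMSO replicates and 62.6, 58.9 and 53.8 CPM in the AZD7762 replicates. The groups did not overlap, although DMSO replicate 2 was only slightly above AZD7762 replicate 1. Its log2 fold change was -0.31 (95% interval -0.50 to -0.13), and it did not pass the test over all genes (adjusted p = 0.190, edgeR). MYCN was called without the filter on low counts (adjusted p = 0.00467) and after removal of trends with GC content and exon length from each library (adjusted p = 0.0146), within a range from 0.00467 to 0.414 over the 13 alternatives run. Calls without the filter weigh less. There the p of MXD1 fell from 7.16e-07 to 2.41e-15 (edgeR), although its standard error rose from 0.0625 to 0.0731. The p of MYC fell from 5.84e-08 to 1.25e-34 (edgeR). MYCNOS, which lies on the opposite strand and covers 3.56% of the exon length of MYCN, had 37, 27 and 28 counts with DMSO and 22, 16 and 18 with AZD7762. Its log2 fold change of -0.52 was not called (edgeR, adjusted p = 0.505).

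MYCL (ENSG00000116990, chromosome 1, 40361100 to 40367928) stood near the level that MYC had with DMSO. It had 3.72, 2.72 and 3.16 CPM with DMSO and 3.10, 2.71 and 3.18 CPM with AZD7762, so that the groups overlapped. The interval of its log2 fold change ran from -0.45 to 0.25 (adjusted p = 0.894, edgeR), and it lies below that of MYC, which ran from 1.38 to 2.03.

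MAX (ENSG00000125952, chromosome 14, 65472892 to 65569413), the common partner of the network, had 46.7, 49.2 and 48.3 CPM with DMSO. With AZD7762 it had 56.8, 53.3 and 53.8 CPM. All treated samples were above all control samples by a small margin. The spread within a group was 2.63% of the mean with DMSO and 3.47% with AZD7762, where counting error alone gives 2.84% and 2.85%. The log2 fold change of 0.19 (95% interval 0.05 to 0.32) did not pass the test over all genes (adjusted p = 0.321, edgeR), and it remained uncalled in each of the 13 alternatives. Genes on the opposite strand overlap 16.1% of the exon length of MAX, and FNTB, which held nearly all counts of these, stood at 0.18 on the log2 scale of the fold change and was not called (edgeR, adjusted p = 0.671).

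**Figure D2:**
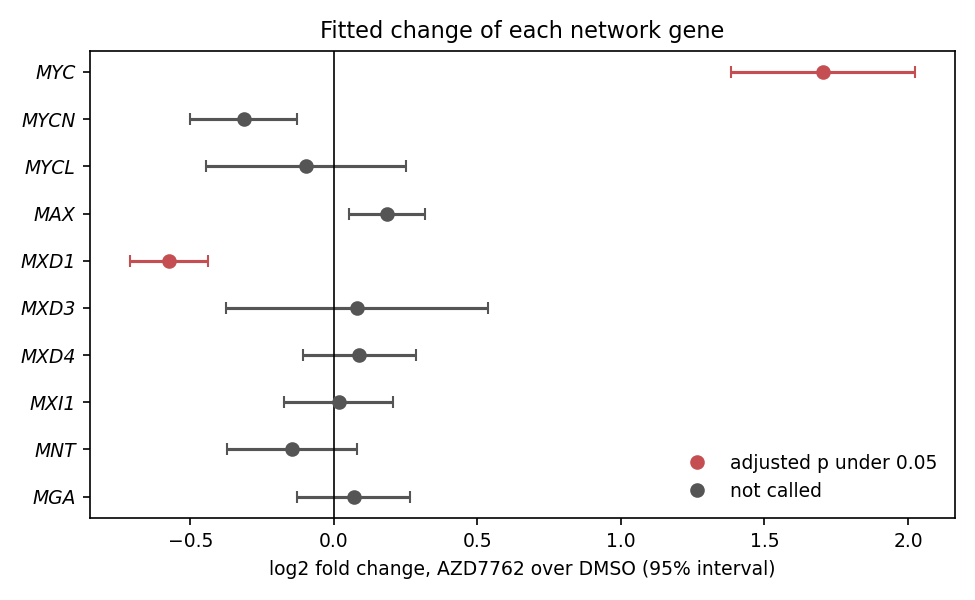
Fitted log2 fold change of AZD7762 over DMSO (horizontal axis) for each network gene, with its 95% interval as a bar and genes called at an adjusted p under 0.05 in red. MYC lies at 1.70 and MXD1 at -0.58, and the other 8 genes lie between -0.31 and 0.19.

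Among the repressors, MXD1 (ENSG00000059728, chromosome 2, 70124820 to 70170077) recruits SIN3 corepressors to E-boxes in place of MYC. It had 101, 100 and 103 CPM in the DMSO replicates, one of the tightest groups in the network. The coefficient of variation was 1.59%, below the 1.95% that counting error alone gives. In the AZD7762 replicates it had 64.1, 67.7 and 72.8 CPM. Every treated sample was far below every control sample. The mean fell from 102 ± 1.61 to 68.2 ± 4.39 CPM (SD, n = 3 per group). The log2 fold change was -0.58 with a standard error of 0.0625 (edgeR, adjusted p = 0.000332), or 0.671 times the DMSO level with a 95% interval from 0.611 to 0.737. SNRNP27, which shares 3.73% of the exon length of MXD1 on the same strand, was not called (log2 fold change 0.09, edgeR, adjusted p = 0.753). MYC and MXD1 were called in each of the 13 alternatives.

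The promoter sequence of MXD1 is shown because it is the repressor that changed, and windows of MNT and MXD4 because theirs hold the E-box CACGTG that the network binds. Sequences are from RefSeq on GRCh38.p14, a build other than that of the counts, with 250 bases before and 50 after the start of each transcript, and they were matched by symbol for all members but MYC, giving 14 promoters for 9 members. For 11 of the 14, those of MXD1, MXD4 and MNT included, bases just after the start were found in an annotated transcript of the gene. Each line runs 5′ to 3′ on the strand of the gene. Capitals mark the GC box GGGCGG in MXD1 (chr2:69914859-69915108, plus strand, the 250 bases before the start) and the E-box in MXD4 (chr4:2262330-2262359, minus strand) and MNT (chr17:2401236-2401265, minus strand).
MXD1: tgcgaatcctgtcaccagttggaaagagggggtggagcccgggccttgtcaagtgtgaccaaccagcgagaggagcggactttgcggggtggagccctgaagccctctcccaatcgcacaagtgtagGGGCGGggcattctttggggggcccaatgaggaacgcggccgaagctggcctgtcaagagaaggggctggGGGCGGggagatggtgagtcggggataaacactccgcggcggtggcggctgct
MXD4: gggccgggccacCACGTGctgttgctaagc
MNT: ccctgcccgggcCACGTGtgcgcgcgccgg
The E-box, which reads the same on both strands, was in 2 of the 14 promoters, those of MXD4 and MNT, and in 7.26% of 35116 promoters of the same length. The GC box, searched on both strands and not overlapping the E-box, was in 11 of the 14 promoters and in 45.0% of all. The MXD1 promoter held 2 GC boxes, 123 and 53 bases before the start, and no E-box. These matches describe the letters in the windows and say nothing of binding in these cells.

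None of the other 3 genes of the MXD family was called. MXD4 (ENSG00000123933, chromosome 4, 2249159 to 2263836) had 65.1, 68.2 and 81.0 CPM with DMSO and 78.1, 67.6 and 81.9 CPM with AZD7762. MXI1 (ENSG00000119950, chromosome 10, 111967363 to 112047123), also known as a MXD protein, had 20.0, 21.7 and 18.5 CPM with DMSO and 18.9, 21.5 and 20.7 CPM with AZD7762. The groups overlapped for both, with log2 fold changes of 0.09 (95% interval -0.11 to 0.29, adjusted p = 0.805, edgeR) for MXD4 and 0.02 (95% interval -0.17 to 0.21, adjusted p = 0.972, edgeR) for MXI1. These intervals lie above that of MXD1, which ran from -0.71 to -0.44. The sign for MXI1 turned when library totals were used without factors (-0.018) and without DMSO replicate 3 or AZD7762 replicate 2 (each -0.03).

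MXD3 (ENSG00000213347, chromosome 5, 176728462 to 176739758), which among MXD genes is known for expression in dividing cells, was the most variable member. It had 10.6, 10.0 and 18.7 CPM with DMSO and 15.0, 10.6 and 15.4 CPM with AZD7762. The highest and the lowest of the 6 values were both control samples, and the coefficient of variation with DMSO was 37.1%, against a counting error of 5.54%. Its log2 fold change was 0.08 with an interval from -0.38 to 0.54 (adjusted p = 0.931, edgeR), and it turned negative without DMSO replicate 1 or 2 or AZD7762 replicate 1 or 3. Exons of RAB24 on the same strand cover 19.5% of its exon length and those of PRELID1 on the opposite strand 24.2%, so that its counts are uncertain.

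MNT (ENSG00000070444, chromosome 17, 2287367 to 2304398), a broadly expressed repressor that opposes MYC in cycling cells, had 32.3, 28.1 and 37.8 CPM with DMSO and 29.6, 26.8 and 32.1 CPM with AZD7762. The groups overlapped, and the interval of its log2 fold change ran from -0.37 to 0.08 (adjusted p = 0.704, edgeR). MGA (ENSG00000174197, chromosome 15, 41913332 to 42065279), the largest protein of the network, which also carries a T-box domain, had 116, 118 and 120 CPM with DMSO. With AZD7762 its values spread more widely, at 103, 127 and 140 CPM, from below to above the control samples. Its log2 fold change was 0.07 (95% interval -0.13 to 0.27, adjusted p = 0.859, edgeR), and -0.03 without AZD7762 replicate 3.

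To compare levels between genes, normalized CPM were divided by the kilobases of the union of a gene's annotated exons, a length that can exceed that of the transcripts present. On this scale the order with DMSO was MYCN (26.4 ± 2.97 CPM per kb, SD, n = 3), MXD1 (16.0 ± 0.254), MXD4 (10.4 ± 1.23), MAX (7.68 ± 0.202), MGA (5.87 ± 0.107), MNT (3.76 ± 0.558), MXI1 (3.40 ± 0.277), MXD3 (2.76 ± 1.03), MYCL (0.644 ± 0.101) and MYC (0.492 ± 0.0852). Neighbours in this order did not overlap from MYCN down to MNT. MNT overlapped MXI1, MXI1 overlapped MXD3, and MYCL overlapped MYC. With AZD7762, MXD1 (10.7 ± 0.692 CPM per kb) overlapped MXD4 (11.0 ± 1.08), and MYC (1.61 ± 0.206) lay above MYCL (0.603 ± 0.0514) without overlap, while MYCN remained highest at 21.2 ± 1.61 CPM per kb.

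**Figure D3:**
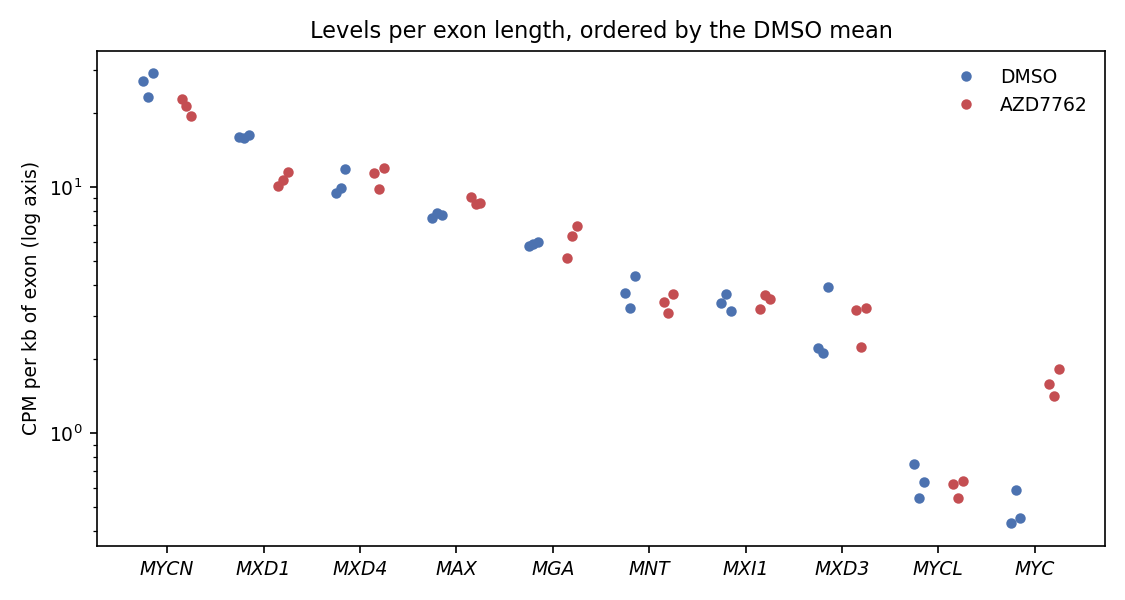
Level of each network gene in CPM per kb of exon (log axis), ordered from left to right by the DMSO mean, with DMSO samples in blue and AZD7762 samples in red. MYCN is highest in both groups, at 26.4 and 21.2 CPM per kb on average, and MYC moves from 0.492 to 1.61.

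Within the MYC family, MYC accounted for 1.53%, 2.43% and 1.51% of the summed level per length of MYC, MYCN and MYCL in the DMSO replicates, and for 6.36%, 6.05% and 8.30% in the AZD7762 replicates. MYCN still held between 88.8% and 91.6% of this sum with AZD7762, compared with 95.3% to 96.4% with DMSO. The sum itself lay between 24.3 and 30.1 CPM per kb with DMSO and between 22.0 and 24.9 with AZD7762, so that the groups overlapped. MXD1 made up between 46.3% and 51.3% of the summed level of MXD1, MXD3, MXD4 and MXI1 with DMSO and between 36.3% and 40.4% with AZD7762, and that sum went from between 31.0 and 35.1 CPM per kb to between 26.4 and 30.1. The level per length of MXD1 was 33.2 ± 5.56 times that of MYC with DMSO and 6.73 ± 0.704 times with AZD7762 (SD, n = 3). The exon lengths used were 6109 bases for MYC, 6351 for MXD1 and 2755 for MYCN, and the shares and ratios depend on them. The ratio of the MXD and MXI1 sum to the MYC family sum was 1.19 ± 0.0998 with DMSO and 1.21 ± 0.144 with AZD7762. These ratios are descriptions of the members and were not tested.

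**Figure D4:**
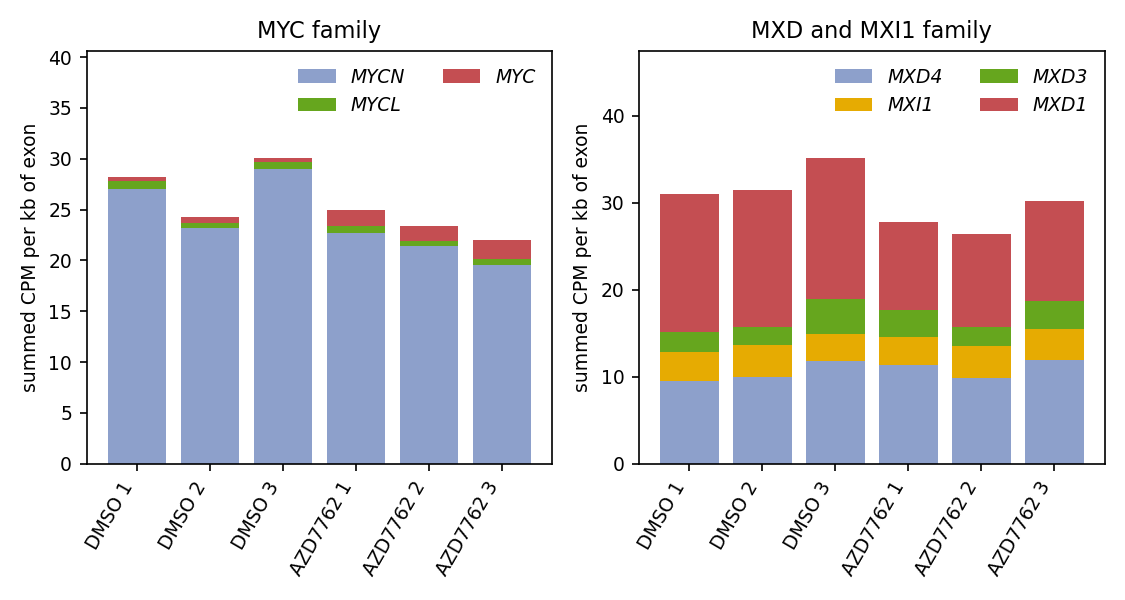
Summed level in CPM per kb of exon (vertical axes from 0) of the MYC family (left) and of MXD1, MXD3, MXD4 and MXI1 (right) in each sample, stacked by gene. MYC (red, left) grows from at most 2.43% to at least 6.05% of its family, and MXD1 (red, right) shrinks from at least 46.3% to at most 40.4%.

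The expression pattern most like that of MYC was looked for among 13805 other genes whose log2 CPM averaged 1 or more, as the root mean square difference of log2 CPM, centred on the gene's mean, over the 6 samples. Nearest was DUSP1, a phosphatase that inactivates MAP kinases, at 0.142, with 79.2 ± 17.7 CPM in the DMSO samples and 255 ± 22.5 in the AZD7762 samples (SD, n = 3). Both MYC and DUSP1 had their highest DMSO value in replicate 2, while with AZD7762 MYC was highest in replicate 3 and DUSP1 in replicate 1. Next after DUSP1 came ZFP36, an mRNA decay factor (0.180), and KLF4, a zinc finger transcription factor (0.204). They were followed by DUSP4, another MAP kinase phosphatase (0.208), and DIP2C-AS1, an antisense RNA (0.241). The log2 fold changes of these 5, which the choice by likeness to MYC over the same samples places near that of MYC, were 1.69, 1.59, 1.83, 1.79 and 1.52 in the order named and are given as a description.

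Genes that work with the network were read from the same fit. In the parallel MLX arm, MLX pairs with the glucose-responsive factors MLXIP and MLXIPL (ChREBP). Here 0 of 3 genes were called, where 0.708% of all genes tested were. An unadjusted p under 0.05 was found for 0 (9.68% of all genes tested), and DESeq2 called 0. MLX, which had the smallest p of the arm, had 49.4 ± 2.76 CPM with DMSO and 46.9 ± 2.81 in the treated samples (SD, n = 3). Its log2 fold change was -0.08 (edgeR, adjusted p = 0.784), while MLXIP and MLXIPL had 0.05 and 0.04. Of 24 cofactors and regulators of MYC and the MXD proteins, 1 was called, where 0.708% of all genes tested were. In this list 2 genes had an unadjusted p under 0.05 (9.68% of all genes tested did), and the median log2 fold change was 0.02. The called gene was AURKA, a mitotic kinase that also stabilizes the MYCN protein. It had 82.4, 75.4 and 75.3 CPM with DMSO and 99.6, 105.5 and 95.8 CPM with AZD7762. Its treated samples were all above its control samples, and the log2 fold change was 0.37 with a standard error of 0.0637 (edgeR, adjusted p = 0.0153). Of the 24 genes, 2 had all treated samples above all control samples and 1 had them below, where 15.0% of all genes tested had either. AURKA was not called without DMSO replicate 2 (adjusted p = 0.101), AZD7762 replicate 1 (0.0833) or AZD7762 replicate 2 (0.102). Over its alternatives the adjusted p ranged from 0.000131, without the filter on low counts, to 0.102. The corepressors SIN3A and SIN3B and the histone deacetylases HDAC1 and HDAC2, which MXD1 uses, had log2 fold changes of 0.06, 0.04, 0.0016 and 0.03 in this order, and 0 of these 4 were called (adjusted p from 0.779 to 0.997, edgeR).

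Of 12 partners of MGA in its Polycomb complex, 0 were called, where 0.708% of all genes tested were. Of the 12, 1 had an unadjusted p under 0.05 (9.68% of all genes tested did) and DESeq2 called 0. The median log2 fold change was -0.01. E2F6, a repressive E2F factor and the partner with the smallest p, had 56.2, 51.9 and 53.7 CPM with DMSO and 49.3, 48.6 and 47.7 CPM with AZD7762. The log2 fold change was -0.15 (edgeR, adjusted p = 0.439). All treated samples of E2F6 were below all control samples. Of the 12 partners, 1 had its treated samples all above and 1 all below, where 15.0% of all genes tested had either.

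The list of MYC target genes held 62 genes, among them genes of ribosome production, nucleotide synthesis, growth and cell division. Of the 62, 61 passed the filter on low counts. Of these 61, edgeR called 0 (0.708% of all genes tested were called), 5 had an unadjusted p under 0.05 (9.68% of all genes tested did), and DESeq2 called 0. The median of their log2 fold changes was 0.06 and 46 of 61 (75.4%) were above 0, against a median of 0.01 and 52.4% higher among all genes tested, and the list ran from -0.19 to 0.27. Their summed level lay between 6384 and 6644 CPM with DMSO and between 6571 and 6792 CPM with AZD7762, so that the groups overlapped. PLK1, a mitotic kinase and the target with the smallest p, had 77.0, 68.5 and 78.3 CPM with DMSO and 90.2, 88.2 and 91.3 CPM with AZD7762. All treated samples were above all control samples, and the log2 fold change was 0.27 (edgeR, adjusted p = 0.108). PLK1 was the 1 target called without the filter on low counts or after removal of the GC and length trends, and antisense genes cover 12.8% of the exons of PLK1. Among the abundant targets, the intervals of the log2 fold change ran from -0.11 to 0.16 for both NCL (nucleolin) and NPM1 (nucleophosmin). ODC1, the rate-limiting enzyme of polyamine synthesis and a long-known MYC target, had 611 ± 20.5 CPM with DMSO and 554 ± 24.5 in the treated samples (SD, n = 3), which all lay below the control samples. Its log2 fold change was -0.14 (edgeR, adjusted p = 0.478). Of the 61 targets, 3 had all treated samples above all control samples and 5 had them below, where 15.0% of all genes tested had either. ODC1, NCL, NPM1 and the corepressors above were chosen for naming after their values were seen. Of 6 genes that MYC is known to repress, 0 were called (0.708% of all genes tested were), 0 had an unadjusted p under 0.05 (9.68% did) and DESeq2 called 0. CDKN1A, a cyclin-dependent kinase inhibitor, had the smallest p of these, with 25.1 ± 1.21 (DMSO) and 23.2 ± 1.57 CPM (AZD7762, SD, n = 3), and its log2 fold change was -0.12 (edgeR, adjusted p = 0.685).

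**Figure D5:**
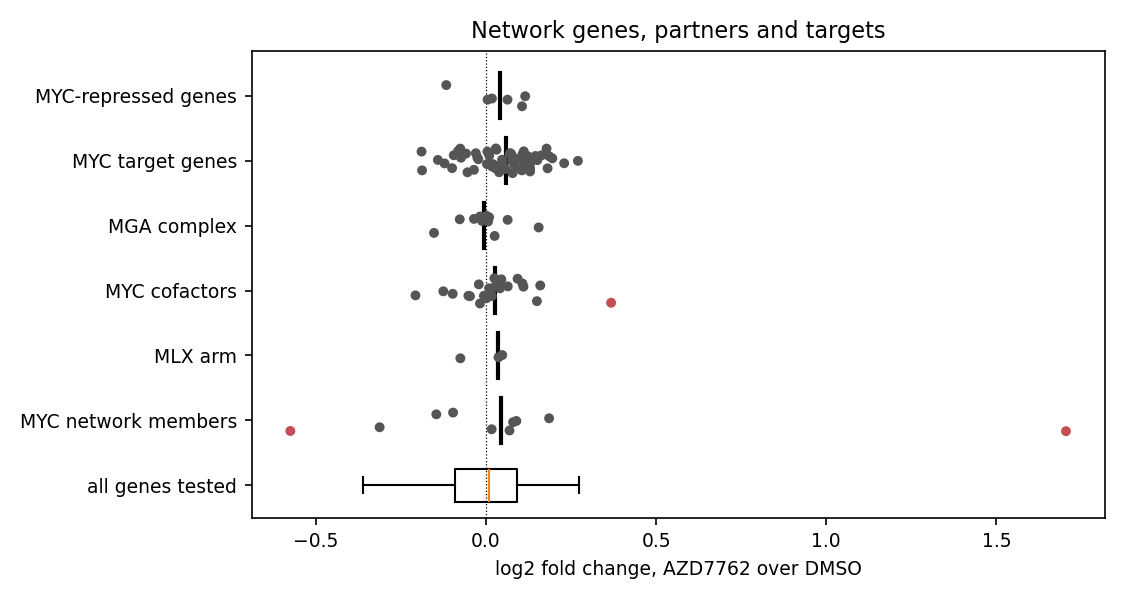
Log2 fold change of AZD7762 over DMSO (horizontal axis) of each tested gene in 6 lists, with called genes in red and the median of a list as a black line. The box gives the quartiles and the whiskers the central 90% of all genes tested. The MYC target genes lie between -0.19 and 0.27 and none is called (0.708% of all genes tested are), while MYC at 1.70 and MXD1 at -0.58 stand apart in the row of network members.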

How the data were processed

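The authors trimmed reads with cutadapt 1.18 after quality control with FastQC 0.10.1, aligned them to GRCh37 and deposited raw read counts per gene for each library. The annotation release and strand setting are not given in the sources used here. From these counts, genes passing edgeR's expression filter (17649 of 60671, holding 99.9% of the counts) were scaled by TMM and tested by quasi-likelihood F-test in edgeR 4.0.16 (R 4.3.3, limma 3.58.1) without covariates, AZD7762 against DMSO, with Benjamini-Hochberg adjustment at 0.05. Symbols, coordinates, exon lengths and GC content came from GENCODE v44 lifted to GRCh37, which matched 96.7% of identifiers. The test was also run on simulated counts, drawn independently for each library with dispersions fitted to these data. Such counts cannot show effects of pairing or of technical replication.

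The members and gene lists were chosen with earlier results of these data known. Named genes were the 10 members, in each list the called genes or otherwise the gene with the smallest p, and the 5 genes most like MYC. Alternatives were RLE factors, library totals, no filter, at least 10 counts in every sample, DESeq2 1.42.0, a replicate block, removal of GC and length trends, and leaving out each library.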

Additional observations from a re-analysis of the deposited data

How the results depend on the processing

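The call and direction of MYC (log2 fold change 1.60 to 1.86 with 1 library left out) and of MXD1 (-0.62 to -0.54) were kept in all 13 alternatives. Of all genes tested, 125 were called, against 330 without the filter on low counts and 220 after removal of trends with GC content and length, and from 77 (without AZD7762 replicate 1) to 168 (without DMSO replicate 3) with 1 library left out. The labels do not say whether samples with the same number belong together. Deviations of same-numbered samples correlated at 0.0487, 0.115 and 0.197, and those of differently numbered samples at -0.236 to 0.160. DMSO replicate 1 correlated best with AZD7762 replicate 2, while DMSO replicates 2 and 3 each correlated best with the AZD7762 replicate of the same number. These weak correlations do not settle whether the numbers pair the samples, and the main fit did not use them as pairs. The replicate block moved the count to 378 and called MYCN (adjusted p = 0.0357, edgeR), so that the members called went from 2 to 3, as they did without the filter and with these trends removed. The MYC target genes called went from 0 to 1 (PLK1) in the same 3 settings. Of these settings, calls without the filter weigh less, as p-values there fell steeply for MYC and MXD1 without a matching fall in standard error. The cofactors called were 0 or 1 with 1 library left out. Direction turned for 4 members. The log2 fold change of MXI1 was -0.018 with library totals, and with 1 library left out the ranges were -0.21 to 0.025 for MYCL, -0.087 to 0.41 for MXD3, -0.035 to 0.071 for MXI1 and -0.029 to 0.17 for MGA. The cause was not tested. At the depth of MYC and MYCL with DMSO, counting error alone was 11.3% and 11.0% of the level.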
